A study of Argopecten irradians concentricus with 9 samples.

Results

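The response of bay scallop muscle to warm water was described from 6 RNA sequencing libraries of the adductor muscle of Argopecten irradians concentricus. The adductor is the muscle that closes the shell. The labels put 3 libraries at high temperature and 3 at room temperature, and the room temperature libraries served as the controls. All animals are given as 1 year old, and no genotype, sex, temperature in degrees or length of exposure is given. The labels speak of RNA taken per tank and do not tell whether libraries of a group stem from different animals or tanks, so each p-value measures the spread between these libraries alone, which may be technical. The study also holds 3 low temperature libraries, which entered the statistical model to estimate the spread and are not described. Of the 28864 gene models in the table, 8611 had a mean of at least 1 FPKM (fragments per kilobase of gene model, scaled to the depth of the library) over the 6 libraries, and these are the gene models described. The lowest mean that was kept was 1.0001 FPKM and the highest that was left out was 0.9999 FPKM. A further 12963 gene models had reads but a lower mean, and 7290 were at 0 in all 6 libraries. The mean at room temperature was below 1 FPKM for 550 of the 8611 and the mean at high temperature was below 1 FPKM for 404, so these passed through 1 group alone. Swiss-Prot protein names were given for 5752 of the 8611 and only a Pfam domain for 743, while 2116 had no annotation. A protein name here is the best match in another species and states similarity only.

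A scallop does not regulate its body temperature, so warm water reaches the muscle directly and raises the rate of its chemistry. Heat unfolds proteins, and cells meet this with chaperones such as the HSP70 and HSP90 families and the DnaJ co-chaperones, while the 26S proteasome degrades proteins that are tagged with ubiquitin. The adductor has a fast striated part used for swimming and a smooth catch part that holds the shell closed at low cost. Its bursts are fuelled by arginine phosphate and by glycolysis, and opine dehydrogenases take the place that lactate dehydrogenase has in vertebrates.

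The libraries held 11716140 to 16229040 assigned reads. The muscle label fitted most of the markers: the gene models of adductor muscle actin, striated muscle myosin heavy chain, paramyosin, troponin C and the striated adductor essential light chain were above 1000 FPKM in every library. Another essential light chain named for adductor muscle (evm.TU.Contig812.11) was only at 10.5 to 30.3 FPKM. No gene model whose name begins with twitchin had a mean of at least 1 FPKM. Of other tissues, the gene models of axonemes, egg yolk and digestive enzymes were low. Haemocyte markers were higher and summed to 402 to 984 FPKM at room temperature and to 329 to 875 FPKM at high temperature. Per library, 24 axonemal dynein chains summed to 0.582 to 1.19 FPKM and 7 tektins of cilia to 0.914 to 3.60 FPKM. For egg yolk, 5 gene models whose names begin with vitellogenin, among them a vitellogenin receptor, summed to 0.629 to 2.70 FPKM. A putative vitellogenin receptor (evm.TU.Contig1287.15), not in this sum, was at 9.85, 10.44 and 14.55 FPKM in room temperature replicates 1, 2 and 3. In those of high temperature it was at 5.33, 6.45 and 5.69 FPKM. Of digestive enzymes, 12 trypsins and chymotrypsins summed to 0.529 to 2.34 FPKM and 2 amylases to 0 to 0.334 FPKM. High temperature replicate 3 stood apart. It lay at 50 on the leading principal component of the 8611 gene models, where the other 5 libraries lay between -26.8 and 6.28. The next component put high temperature replicates 1 and 2 at 27.8 and 29.7, with the room temperature libraries at -29.3 to -7.74 and high temperature replicate 3 at -8.51, so that on this component it lay within the room temperature range. Its 50 most abundant gene models took 62.5% of its reads, against 50.3% to 58.0% in the other libraries, and its FPKM summed to 1157874 where the others summed to 500983 to 864235. The deposited FPKM already carry a scaling between libraries that divides by a size factor of 0.649 in this library and by 1.03 to 1.42 in the others. List medians are therefore given with and without this library.

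No gene model passed the test between high and room temperature. Limma on log2(FPKM + 1) called 0 higher and 0 lower at a Benjamini-Hochberg adjusted p under 0.05 (0% of 8611 in each direction), with a lowest adjusted p of 0.300. Those with an unadjusted p under 0.05 numbered 412 higher (4.78%) and 427 lower (4.96%). Voom on the reads recovered from the FPKM also called 0 in each direction, and at an unadjusted p under 0.05 it gave 447 higher and 387 lower. When every library was scaled to the same total, the calls stayed at 0 and the split at an unadjusted p under 0.05 was 335 higher and 121 lower. The 2 groups did not overlap in 658 gene models that were higher at high temperature (7.64%) and in 773 that were lower (8.98%). Log2 changes below 0 made up 52.8% of all gene models, and the median log2 change was -0.03. The groups, lists and gene models below are described against these shares and this median. Gene models with higher or lower values are named as such from their values, and none of them was called.

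**Figure D1:**
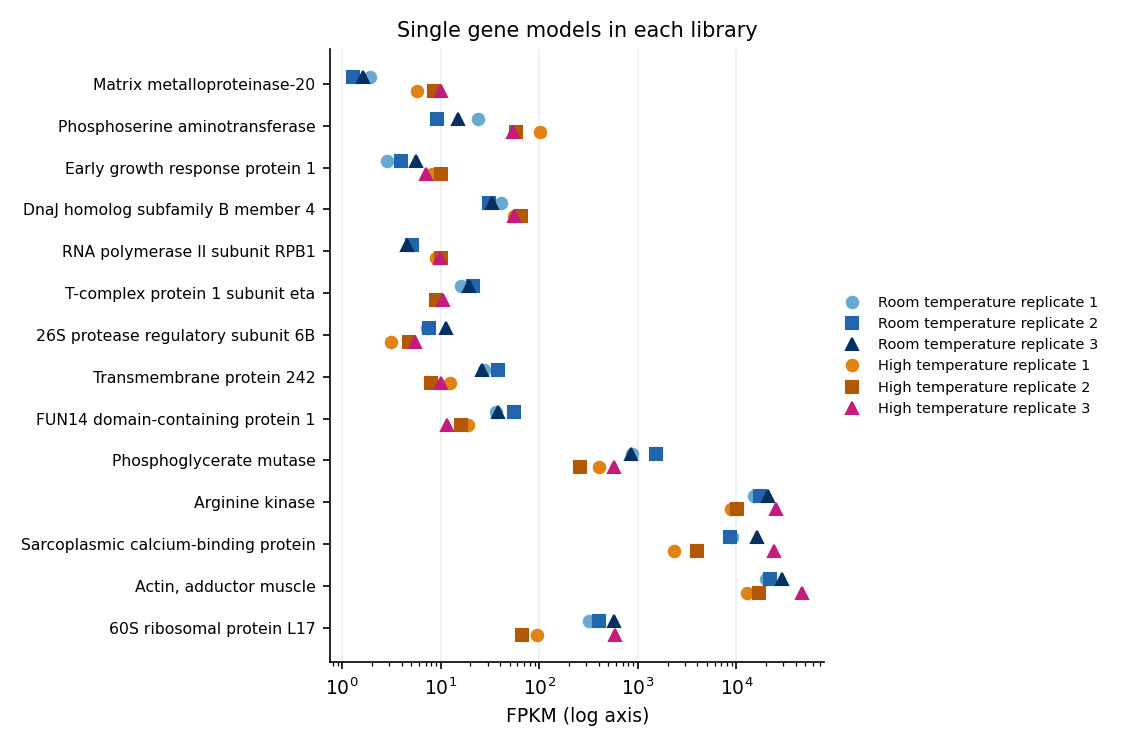
FPKM of 14 gene models in each of the 6 libraries, on a log axis. Blue symbols are room temperature and orange or pink symbols high temperature, with circles for replicate 1, squares for replicate 2 and triangles for replicate 3. The 2 groups are apart in the upper 10 gene models. In the last 4 the pink triangle of high temperature replicate 3 lies above all other libraries while high temperature replicates 1 and 2 lie below the room temperature libraries.

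Among gene models with higher values at high temperature, the 12 of lowest p had no function in common. Values are given in the order of replicates 1, 2 and 3. The match to matrix metalloproteinase-20, a zinc protease of the extracellular matrix (evm.TU.Contig410.40, Contig410 from 680738 to 691418, minus strand), was at 1.92, 1.27 and 1.64 FPKM at room temperature and at 5.73, 8.58 and 10.1 FPKM at high temperature. Every high temperature library was above every room temperature library. The log2 change was 1.78 (SE 0.27) at a limma adjusted p of 0.300, and 1.63 without high temperature replicate 3. Phosphoserine aminotransferase, an enzyme of serine synthesis from a glycolytic intermediate (evm.TU.Contig1410.7, Contig1410 from 285453 to 300667, plus strand), was at 23.8, 9.13 and 15.1 FPKM at room temperature. At high temperature it was at 101, 57.6 and 53.4 FPKM, so the groups were apart, and the log2 change was 2.11 (SE 0.38) at a limma adjusted p of 0.300. A match to cytochrome P450 2H1, a monooxygenase of the family that oxidises lipids and foreign compounds, was at 0.184, 0.379 and 0.861 FPKM at room temperature and at 3.99, 8.19 and 6.6 FPKM at high temperature. Its log2 change was 2.28 (SE 0.49) at a limma adjusted p of 0.322. Its room temperature mean was 0.475 FPKM, so it entered the test through the high temperature group alone, as did fatty acyl-CoA reductase 2 and nucleoredoxin 1 below.

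The lysosomal enzyme beta-hexosaminidase subunit alpha, which trims sugars from glycolipids, was at 1.98, 1.34 and 3.23 FPKM at room temperature and at 7.01, 6 and 6.53 FPKM at high temperature. Macrophage-expressed gene 1 protein, a pore-forming protein of immune cells, was at 9.93, 5.71 and 10.7 FPKM at room temperature and at 24.5, 19.6 and 20 FPKM at high temperature. The high temperature values of both lay above every room temperature value and close together. Soma ferritin, an iron store, has 3 tested gene models of this name. The one on Contig1357 from 155552 to 158297 was at 13.2, 8.2 and 15 FPKM at room temperature and at 30.6, 22.2 and 36 FPKM at high temperature (log2 change 1.23, limma adjusted p = 0.322). A far more abundant neighbour of the same name, evm.TU.Contig1357.4, was at 7659.5, 6585 and 10862 FPKM at room temperature and at 5439.5, 7660.2 and 15625 FPKM at high temperature, where the groups overlapped. The other gene models of lowest p in this direction were transmembrane protein 135 (log2 change 1.16), fatty acyl-CoA reductase 2, which makes fatty alcohols (1.09), a reverse transcriptase of a mobile element (1.56), a serine protease like F56F10.1 of Caenorhabditis elegans (1.05), nucleoredoxin 1, a redox protein (1.23), and apolipophorins, lipid carriers of insects (1.18). In all 12 the groups did not overlap (7.64% of all gene models), which follows largely from choosing them by p. Without high temperature replicate 3 their log2 changes were between 1.04 and 2.28.

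Among gene models with lower values at high temperature, several of the 12 of lowest p are named for proteins that act in mitochondria. The share of such proteins among all gene models was not counted. As a list, mitochondrial ribosomal proteins lay below 0 in 31 of 58 (53.4%, against 52.8% of all gene models). TMEM242, which in mammals helps to assemble the mitochondrial ATP synthase (evm.TU.Contig678.25, Contig678 from 572326 to 583029, minus strand), was at 27.4, 38.4 and 26.3 FPKM at room temperature and at 12.4, 7.88 and 10 FPKM at high temperature. Its groups were apart, and the log2 change was -1.51 (SE 0.27) at a limma adjusted p of 0.300. FUN14 domain-containing protein 1, a receptor on the outer mitochondrial membrane that marks mitochondria for autophagy, was at 36.6, 55.3 and 38.4 FPKM at room temperature and at 18.9, 16 and 11.6 FPKM at high temperature (log2 change -1.43, limma adjusted p = 0.300). The alpha subunit of 2-oxoisovalerate dehydrogenase, which breaks down branched-chain amino acids in mitochondria, was at 3.8, 4.32 and 3.52 FPKM at room temperature and at 0.589, 0.845 and 2.06 FPKM at high temperature. Again the groups did not overlap, although high temperature replicate 3 lay nearest to the controls (log2 change -1.23 with it and -1.51 without). The mitochondrial ribosomal proteins S23 (-1.26) and L38 were in the same set of 12.

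Other lower gene models act outside mitochondria. The ADAM protease match mig-17, a secreted protease of Caenorhabditis elegans that shapes basement membranes, was at 5.84, 4.04 and 6.58 FPKM at room temperature and at 2.05, 1.39 and 1.62 FPKM at high temperature (log2 change -1.26, limma adjusted p = 0.300). Transcription factor HES-4, a repressor downstream of Notch, was at 25.3, 22.5 and 9.26 FPKM at room temperature and at 4.08, 5.89 and 5.73 FPKM at high temperature (log2 change -1.58). Growth/differentiation factor 15, a hormone-like TGF-beta relative that marks cell stress in mammals, was at 18.6, 4.92 and 9.51 FPKM at room temperature and at 1.55, 2.11 and 3.1 FPKM at high temperature (log2 change -1.74, limma adjusted p = 0.322). All 3 room temperature values exceeded all 3 high temperature values in each of these gene models, while the room temperature libraries of HES-4 and growth/differentiation factor 15 spread widely. The remaining gene models of this set were exocyst complex component 4, which tethers secretory vesicles (-1.07), small nuclear ribonucleoprotein E of the spliceosome core (-1.29), the iron-sulphur cluster assembly factor nubp1 (-1.02) and peroxiredoxin-6, which reduces peroxides (-1.26).

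Functional lists were built from words in the protein names, and 39 of 41 lists had at least 5 tested gene models. With 3 high temperature libraries, 28 of the 39 list medians lay below 0. Without high temperature replicate 3 it was 26. With every library scaled to the same total it was 14, and with that scaling and without high temperature replicate 3 it was 4, since the median of all gene models then lay at 0.28. The direction of many lists therefore depended on the scaling, and lists are also given relative to the median of all gene models. Leaving out high temperature replicate 3 moved 15 medians by over 0.1 and turned the sign of 6.

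**Figure D2:**
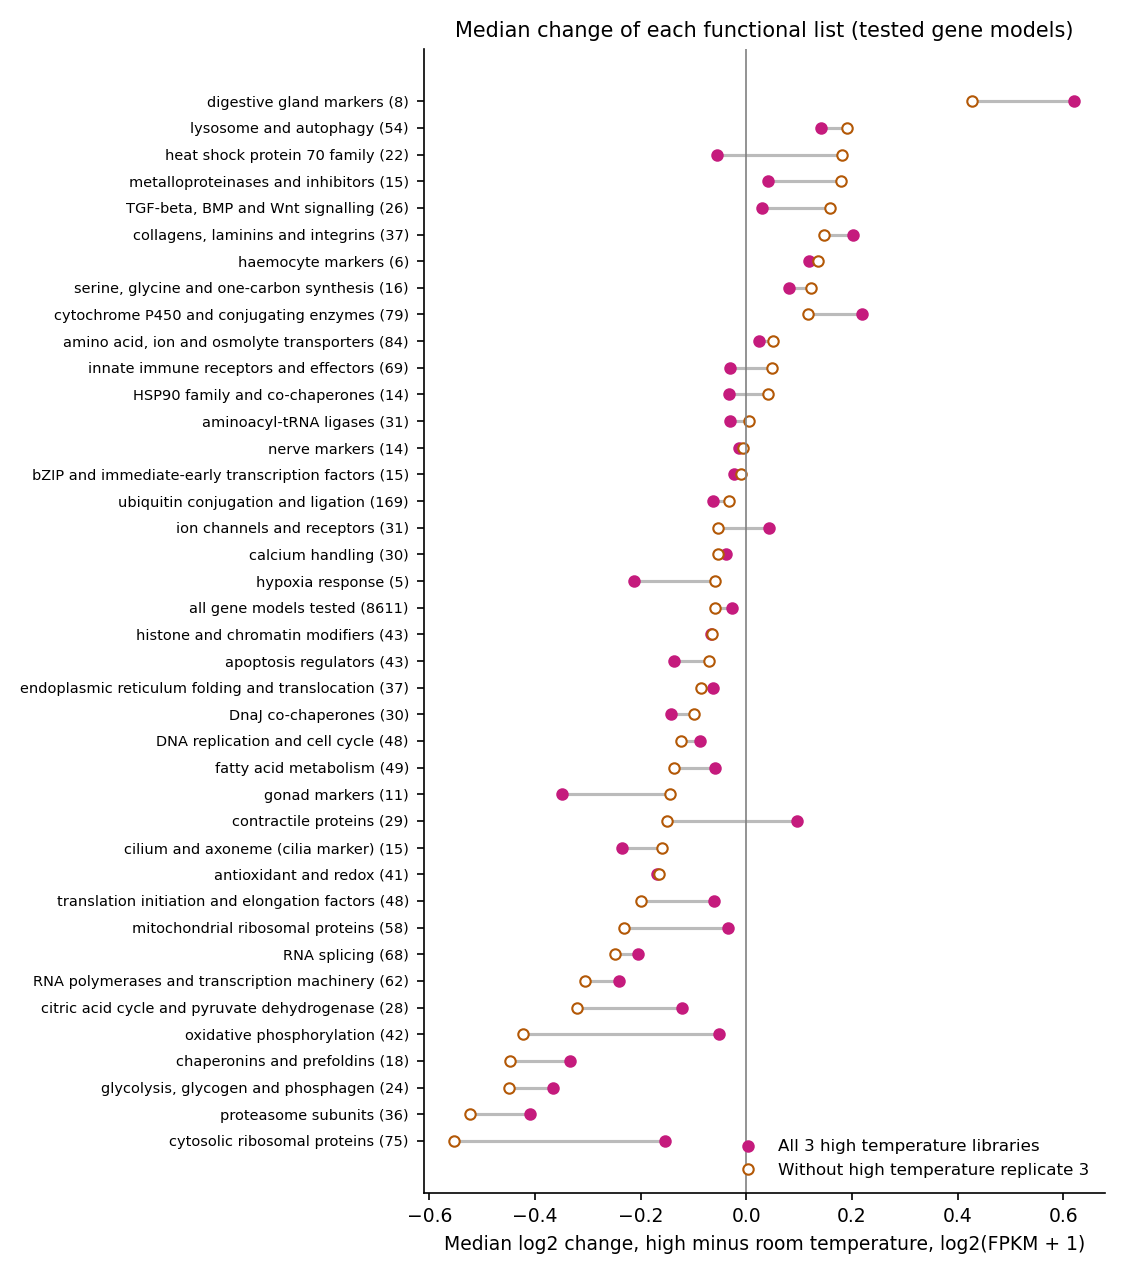
Median log2 change of each list of at least 5 tested gene models and of all gene models tested, with all 3 high temperature libraries (filled) and without high temperature replicate 3 (open); the number of tested gene models follows each name. The grey line joining the symbols is longest for cytosolic ribosomal proteins (-0.15 and -0.55) and oxidative phosphorylation (-0.05 and -0.42), and short for proteasome subunits (-0.41 and -0.52) and RNA splicing (-0.21 and -0.25).

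The heat shock families gave no common direction. Of 108 HSP70 gene models in the table, 22 were tested, of which 10 lay above 0 and 12 below, with a median of -0.06 that became 0.18 without high temperature replicate 3. The most abundant, heat shock cognate 71 kDa protein, a constitutive chaperone, was at 229, 239 and 278 FPKM at room temperature and at 210.1, 198 and 306 FPKM at high temperature, with overlapping groups. The mitochondrial HSP70, stress-70 protein, was at 69.1, 75.3 and 43.3 FPKM and at 48.2, 58.4 and 50.1 FPKM. A match to heat shock 70 kDa protein 12A, a distant HSP70 relative of a kind that is numerous in bivalve genomes, had the lowest p of the list. It was at 0, 0 and 0.413 FPKM at room temperature and at 0.732, 2.23 and 4.89 FPKM at high temperature (log2 change 1.51, limma adjusted p = 0.485), so the groups were apart at low levels. With a room temperature mean of 0.138 FPKM it was tested through its high temperature values alone, and its place in the list follows in part from that filter. A gene model like heat shock protein 70 B2, evm.TU.Contig177.33, was at 10.4, 19.1 and 7.66 FPKM and at 12.2, 14.1 and 4.77 FPKM, and its log2 change turned from -0.26 to 0.17 without high temperature replicate 3. Reads of such similar gene models may not be separable, and the labels do not say how shared reads were counted.

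The 3 small heat shock proteins all lay below 0. Alpha-crystallin B chain, the most abundant, was at 1849, 6246 and 5579.7 FPKM at room temperature and at 2743, 2345 and 3903 FPKM at high temperature. Room temperature replicate 1 was the lowest of the 6, so the groups overlapped (log2 change -0.45, limma adjusted p = 0.791). The 2 gene models of heat shock protein beta-8 had log2 changes of -0.80 and -0.48. HSP90-beta was at 99.3, 102 and 98.7 FPKM at room temperature and at 70, 92.6 and 71.7 FPKM at high temperature, below every control (log2 change -0.37, limma adjusted p = 0.683). Its list of 14 HSP90 and co-chaperone gene models had a median of -0.03, and 0.04 without high temperature replicate 3.

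DnaJ homolog subfamily B member 4, which hands unfolded proteins to HSP70, had higher values in warm water. It was at 40.7, 30.5 and 32.9 FPKM at room temperature and at 55.3, 65.5 and 55.7 FPKM at high temperature. The groups did not overlap (log2 change 0.75, SE 0.24, limma adjusted p = 0.355), and the change was 0.79 without high temperature replicate 3. The list it belongs to went the other way: 21 of 30 DnaJ gene models lay below 0, with a median of -0.14 (-0.10 without high temperature replicate 3). In the lower direction was DnaJ homolog subfamily C member 11, a mitochondrial member (-0.88, limma adjusted p = 0.322).

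Chaperonins and prefoldins, which fold actin and tubulin, were mostly lower at high temperature. Of 18 tested gene models 15 lay below 0 (83.3% where all gene models had 52.8%), with a median of -0.33. In this list 4 were lower at an unadjusted p under 0.05 (where all gene models had 4.96%). That count was 1 without high temperature replicate 1 and with the same total and 2 without room temperature replicate 1, and the median was -0.21 without high temperature replicate 1. T-complex protein 1 subunit eta, a ring subunit of the chaperonin, was at 16.1, 21.2 and 19.3 FPKM at room temperature and at 9.27, 8.97 and 10.5 FPKM at high temperature (log2 change -0.90, limma adjusted p = 0.322). Subunit theta was at 77.1, 79.1 and 83.1 FPKM and at 37.9, 61.4 and 60.7 FPKM. Prefoldin subunit 2, which delivers the substrates, was at 12.2, 12.9 and 11.9 FPKM and at 5.8, 6.17 and 8.47 FPKM. In these 3 the groups were apart. The median was -0.45 without high temperature replicate 3 and -0.01 when, in addition, all libraries had the same total, where the median of all gene models was 0.28.

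In the endoplasmic reticulum list 19 of 37 gene models lay below 0 and the median was -0.06 (-0.09 without high temperature replicate 3). Protein disulfide-isomerase A4, which forms disulfide bonds in secreted proteins, was at 2.06, 2.96 and 1.86 FPKM at room temperature and at 3.32, 6.2 and 6.57 FPKM at high temperature (log2 change 0.92, limma adjusted p = 0.348). The SEC63 homolog of the translocation channel had a log2 change of -0.79.

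Proteasome subunits lay lower almost throughout. Of 36 tested subunits 35 lay below 0 (97.2%), with a median of -0.41, and 33 of 36 lay below the median of all gene models. At an unadjusted p under 0.05, 9 were lower (where all gene models had 4.96%) and 0 higher. That count was 3 without high temperature replicate 1 and without room temperature replicate 3, 4 without room temperature replicate 2, and 0 with the same total. The regulatory ATPase 6B was at 7.22, 7.59 and 11.3 FPKM at room temperature and at 3.15, 4.77 and 5.53 FPKM at high temperature, with the groups apart (log2 change -0.82, SE 0.27, limma adjusted p = 0.363). The core subunit beta type-2 was at 17.4, 20.4 and 30.5 FPKM and at 10.7, 17.4 and 5.69 FPKM, where high temperature replicate 2 and room temperature replicate 1 nearly met (log2 change -1.04, limma adjusted p = 0.418). DSS1, a small lid subunit, was at 59.5, 98.7 and 74.8 FPKM and at 37.8, 54.8 and 47.6 FPKM. In the per-library medians, high temperature replicate 1 was lowest at -0.74 from the room temperature mean, with replicates 2 and 3 at -0.23 and -0.27 and the controls at -0.16, -0.06 and 0.13. Over the alternatives the median ran from -0.56 without room temperature replicate 1 to -0.11 with the same total and without high temperature replicate 3, and it was below the median of all gene models in all 26. Without high temperature replicate 1 it was -0.27, with 28 of 36 below 0, so that library carries part of the difference. As a share of reads the list took 0.0953%, 0.102% and 0.094% at room temperature and 0.0875%, 0.102% and 0.0587% at high temperature, and on this scale the groups overlapped.

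**Figure D3:**
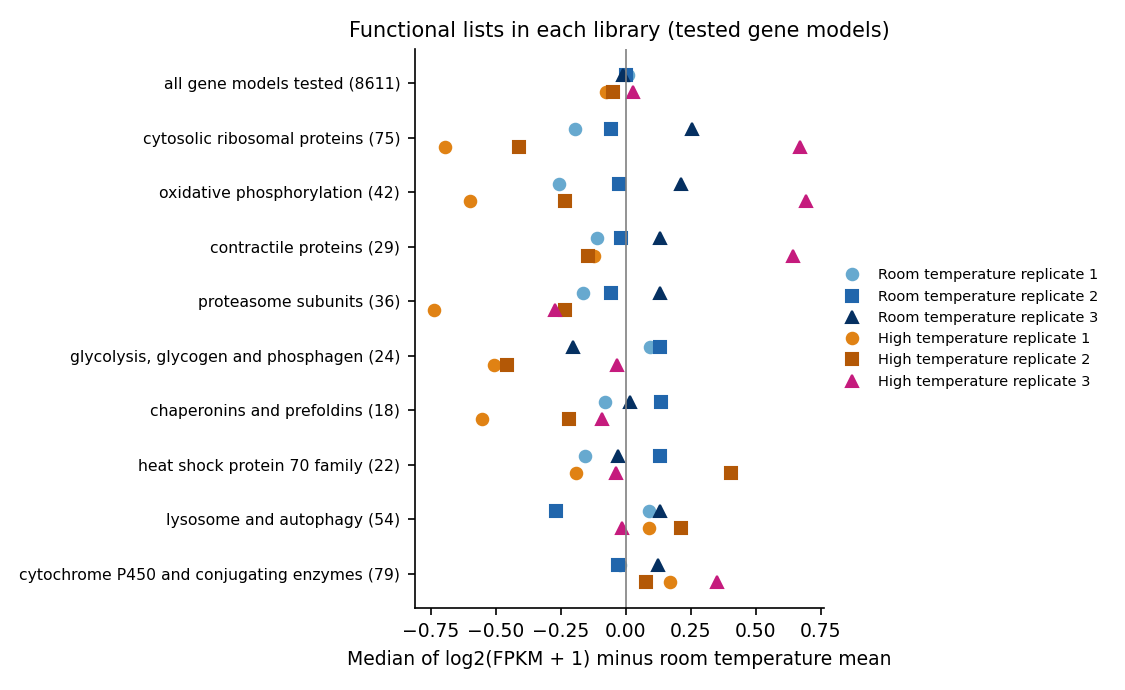
Median over the tested gene models of each list (their number in brackets) of log2(FPKM + 1) minus the room temperature mean, 1 point per library. Blue symbols are room temperature, orange and pink symbols high temperature, and the shapes give the replicate. High temperature replicate 3 (pink triangle) is at 0.67, 0.69 and 0.64 for ribosomal proteins, oxidative phosphorylation and contractile proteins, where the other libraries lie between -0.69 and 0.26. For proteasome subunits it lies at -0.27, beside high temperature replicate 2.

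The other routes of protein turnover showed no such uniformity. Of 169 gene models for ubiquitin conjugation and ligation, 98 lay below 0, with a median of -0.06 (-0.03 without high temperature replicate 3). Polyubiquitin-C was at 2695, 2684 and 2890.4 FPKM at room temperature and at 2278, 3612 and 5385 FPKM at high temperature. High temperature replicate 3 was the highest of the 6, and the log2 change was 0.36 with it and 0.06 without. A match to the ligase XIAP, an inhibitor of caspases (evm.TU.Contig851.16), was at 0.523, 0.606 and 2.16 FPKM and at 5.5, 2.17 and 7.64 FPKM (log2 change 1.51, limma adjusted p = 0.326). Another of that name had a log2 change of 0.74.

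Lysosome and autophagy gene models leaned upward, with 35 of 54 above 0 and a median of 0.14 that was 0.19 without high temperature replicate 3. The median was above that of all gene models in all 26 alternatives. It was 0.03 without high temperature replicate 2 in the fit of only the 6 libraries, and 0.04 without room temperature replicate 2. The per-library medians overlapped, at 0.09, -0.27 and 0.13 from the room temperature mean in the controls and at 0.09, 0.21 and -0.01 at high temperature. At an unadjusted p under 0.05, 4 of 54 were higher and 3 lower, where all gene models had 4.78% and 4.96%. Cathepsin L, the most abundant, was at 648, 322 and 591 FPKM and at 398, 575 and 609 FPKM, with overlapping groups. A pair of gene models for subunit 1 of the complex that builds lysosome-related organelles went in opposite directions, at 2.08 for evm.TU.Contig48944.1 and -1.18 for evm.TU.Contig115.46. Of 43 apoptosis regulators 27 lay below 0 (median -0.14, and -0.07 without high temperature replicate 3). Caspase-8, an initiator protease of cell death, was at 4.15, 8.49 and 4.24 FPKM at room temperature and at 2.84, 2.17 and 0.846 FPKM at high temperature (log2 change -1.17, limma adjusted p = 0.348). GADD45 alpha, a growth arrest protein, was at 334, 215 and 170.0 FPKM and at 135, 115 and 109.9 FPKM. In both, every high temperature value was below every control.

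In energy metabolism on the deposited scaling, most gene models of glycolysis and of the respiratory chain lay below 0. On that scaling the median of the respiratory chain depended far more on high temperature replicate 3. With the same total the glycolysis median went from -0.28 with that library to -0.04 without it, and the median of all gene models from 0.05 to 0.28. Glycolysis thus moved along with all gene models. The median of the respiratory chain then went from 0.03 to 0.02, so it did not move along with them. Of 24 gene models of glycolysis, glycogen and the phosphagen 21 lay below 0 (87.5%) and the median was -0.37. At an unadjusted p under 0.05, 0 were higher and 5 lower (where 4.96% of all gene models were lower). That count was 3 without room temperature replicate 1 and with the same total, and without high temperature replicate 2 the median was -0.20. Phosphoglycerate mutase, a late glycolytic enzyme (evm.TU.Contig220.82, Contig220 from 1727502 to 1732890, plus strand), was at 864, 1518 and 855 FPKM at room temperature and at 400.3, 261 and 571 FPKM at high temperature. The groups were apart. The log2 change was -1.41 (SE 0.36) at a limma adjusted p of 0.322, and -1.68 without high temperature replicate 3. Opine dehydrogenase, which regenerates NAD when oxygen is short, was at 7.26, 5.96 and 2.99 FPKM and at 3.32, 1.73 and 1.06 FPKM, where room temperature replicate 3 lay below high temperature replicate 1 (log2 change -1.08). The regulatory subunit 3B of protein phosphatase 1, which directs the phosphatase to glycogen, was at 29.8, 109 and 25.1 FPKM and at 15.3, 3.67 and 15.8 FPKM. Its log2 change of -2.04 was among the 2 greatest falls in value of all gene models (limma adjusted p = 0.418). Over the alternatives the list median ran from -0.56 with array weights to -0.04 with the same total and without high temperature replicate 3, and lay below that of all gene models in all 26.

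The most abundant enzymes of energy supply followed high temperature replicate 3. Arginine kinase, which recharges ATP from arginine phosphate, was at 14999, 17506 and 21110.1 FPKM at room temperature and at 8738, 10111 and 25285 FPKM at high temperature. Replicates 1 and 2 lay below all controls and replicate 3 above them, so the log2 change was -0.44 with it and -0.91 without (limma adjusted p = 0.807 and 0.409). Glyceraldehyde-3-phosphate dehydrogenase was at 2055, 2652 and 2676 FPKM and at 1586, 1935 and 4629 FPKM, with the same arrangement.

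Oxidative phosphorylation gave a median of -0.05 over 42 gene models, with 26 below 0, and -0.42 with 41 below 0 once high temperature replicate 3 was left out. That library was the highest of the 6 in 37 of them (88.1%). Without high temperature replicate 1 the median was 0.22. With the same total, high temperature replicate 3 was the highest in 9 of them. The list median was then 0.03 with it and 0.02 without, where the median of all gene models was 0.05 and 0.28. Cytochrome c oxidase subunit 1, a mitochondrially encoded core subunit, was at 10903, 9054 and 15956 FPKM and at 6995, 16201 and 23775 FPKM, where the groups overlapped even without replicate 3. The citric acid cycle list had a median of -0.12 over 28 gene models and -0.32 without that library. Mitochondrial malate dehydrogenase was at 346, 453 and 340.1 FPKM and at 208, 202 and 410.5 FPKM. Pyruvate dehydrogenase kinase isozyme 3, which switches off entry of pyruvate into the cycle, was at 2.18, 2.47 and 2.83 FPKM and at 4.3, 10.7 and 8.07 FPKM, with the groups apart (log2 change 1.25, limma adjusted p = 0.432). Fatty acid metabolism had 25 of 49 below 0 and a median of -0.06 (-0.14 without that library). Short/branched chain acyl-CoA dehydrogenase, an enzyme of fatty and branched-chain acid breakdown, was at 3.23, 3.92 and 3.46 FPKM and at 1.48, 1.72 and 1.35 FPKM (log2 change -0.85, limma adjusted p = 0.322).

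Cytosolic ribosomal proteins showed the dependence on high temperature replicate 3 most fully. Of 75 tested gene models 65 lay below 0 with a median of -0.15, and in 0 of them were all high temperature libraries below all controls. Without that library 73 lay below 0, the median was -0.55, and in 66 (where 19.7% of all gene models did) the remaining high temperature libraries lay below all controls. It was the highest of the 6 libraries in 73 of 75. The abundant 40S ribosomal protein S27 was at 13201, 14655 and 17128 FPKM at room temperature and at 9030.5, 11914 and 19338 FPKM at high temperature. Protein S15Aa was at 8261, 9252 and 11125 FPKM and at 5622, 6769 and 14768 FPKM. A wide gap was in L17 (evm.TU.Contig624.9), at 318, 403 and 577 FPKM and at 93.7, 67.2 and 593 FPKM, with a log2 change of -1.43 that was -2.39 without replicate 3 (limma adjusted p = 0.607 and 0.320).

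As a share of all assigned reads, which divides each library by its own total, ribosomal proteins took 18.7%, 19.0% and 20.7% at room temperature. At high temperature they took 16.7%, 17.9% and 20.2%. On this scale high temperature replicate 3 lay within the room temperature range, and replicates 1 and 2 lay below it. A share also depends on how many reads the other gene models took. With every library scaled to the same total, the list median was -0.07, and -0.10 without high temperature replicate 3, where the median of all gene models was 0.05 and 0.28. The list median turned to 0.13 without high temperature replicate 1. Mitochondrial ribosomal proteins moved alike but less, from -0.03 to -0.23 over 58 gene models, and translation factors from -0.06 to -0.20 over 48. Elongation factor 1-alpha, which brings aminoacyl-tRNA to the ribosome, was at 10984, 11615 and 13769.9 FPKM and at 8905, 9592 and 21054 FPKM. Initiation factor 5A-1 was lower in all 3 high temperature libraries, at 20.2, 19.6 and 17.7 FPKM against 13.4, 8.97 and 9.2 FPKM (log2 change -0.82, limma adjusted p = 0.355).

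**Figure D4:**
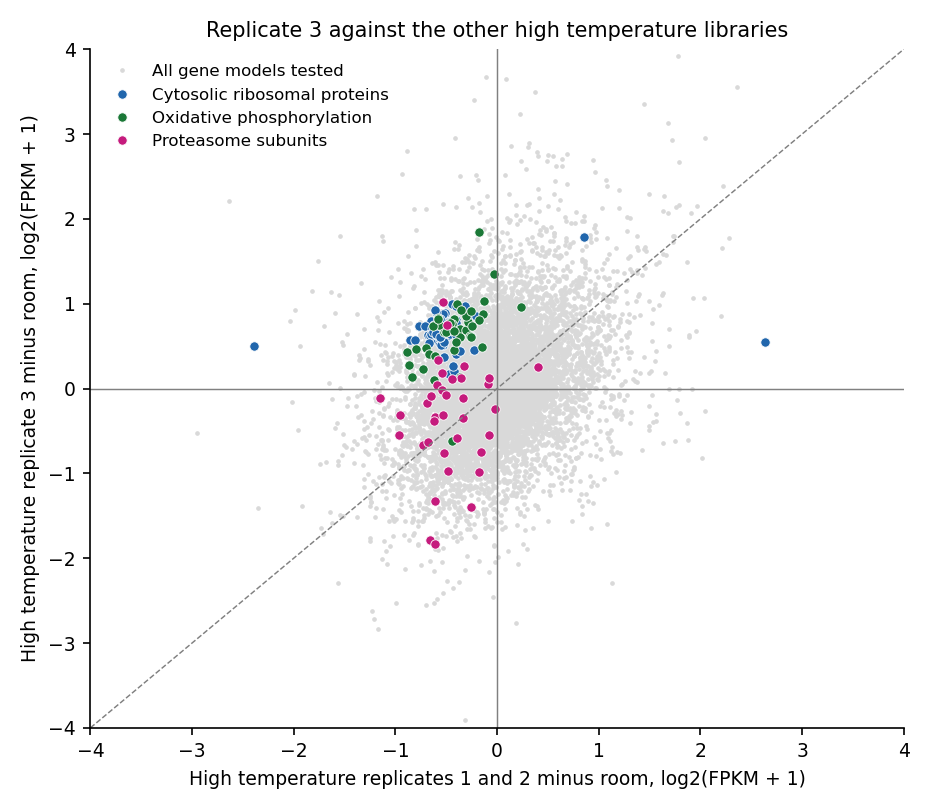
Each gene model's mean of high temperature replicates 1 and 2 minus the room temperature mean (horizontal) against high temperature replicate 3 minus the same mean (vertical), both on log2(FPKM + 1); the dashed line marks equal values, 4 gene models lie outside the axes, and both axes subtract the same room temperature libraries. Ribosomal (blue) and oxidative phosphorylation (green) gene models sit left of 0 and above 0, while proteasome subunits (pink) sit mostly left of 0 and on both sides of 0 vertically.

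RNA splicing and the transcription machinery were lower in most members. Of 68 splicing gene models 50 lay below 0 (73.5%), with a median of -0.21 that was -0.25 without high temperature replicate 3. Here 7 were lower at an unadjusted p under 0.05 (where all gene models had 4.96%) against 0 higher. That count was 2 without room temperature replicate 1, without room temperature replicate 2 and with the same total, and 3 without high temperature replicate 1. Small nuclear ribonucleoprotein E was at 21.8, 32.5 and 21.3 FPKM at room temperature and at 7.29, 13.1 and 8.86 FPKM at high temperature. Its partner in the Sm ring, small nuclear ribonucleoprotein F, was at 20.1, 39 and 26.4 FPKM and at 11.3, 15.1 and 14.5 FPKM (log2 change -0.97, limma adjusted p = 0.380). In both the groups were apart. With the same total and without high temperature replicate 3 the list median was 0.14, where the median of all gene models was 0.28.

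Of 62 gene models for RNA polymerases and the basal machinery 44 lay below 0 (median -0.24, and -0.30 without high temperature replicate 3). RPB1, the largest subunit of RNA polymerase II, went against its list. It was at 5.07, 5.09 and 4.53 FPKM at room temperature and at 8.93, 9.94 and 9.84 FPKM at high temperature, 2 narrow and separate groups (log2 change 0.84, SE 0.21, limma adjusted p = 0.322). TFIID subunit 5 was at 12.4, 9.32 and 13.1 FPKM and at 3.37, 6.89 and 4.42 FPKM (-1.13), and TFIID subunit 10 was at 36.8, 54.7 and 54.3 FPKM and at 17.7, 12.4 and 43.7 FPKM (-1.13, and -1.62 without high temperature replicate 3). Aminoacyl-tRNA ligases had a median of -0.03 over 31 gene models, which turned to 0.0046 without high temperature replicate 3, with 1 of the serine-tRNA ligases at -1.04.

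Contractile proteins had a median of 0.10 over 29 tested gene models and of -0.15 without high temperature replicate 3. Adductor muscle actin was at 20055, 22151 and 29050.2 FPKM at room temperature and at 12877, 16854 and 46141 FPKM at high temperature (log2 change -0.12, and -0.67 without replicate 3). The smooth adductor regulatory light chain of myosin was at 39264, 44816 and 45426 FPKM and at 31214, 30683 and 78735 FPKM. Striated muscle myosin heavy chain was at 2654, 2858 and 3679 FPKM and at 2321, 2254 and 5436 FPKM. In each of these 3, high temperature replicate 3 was the highest of the 6 libraries and the other high temperature libraries were the lowest. As a share of reads the contractile list took 27.6%, 28.2% and 28.5% at room temperature. It took 27.6% and 27.3% in high temperature replicates 1 and 2, and 32.7% in replicate 3. That library thus stood above the others as a share of its own total. Relative to gene models of like abundance the median was 0.21 both with and without it, a comparison added after the data were seen. A non-adductor actin, actin-2, went the other way at 3262, 1838 and 4021 FPKM and at 1466, 1883 and 1273 FPKM (log2 change -0.93, limma adjusted p = 0.507). In bulk muscle, fewer cells of a type and less RNA per cell cannot be told apart, and this holds for every list here.

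Calcium handling held the gene model with one of the widest gaps between high temperature libraries. Sarcoplasmic calcium-binding protein, a soluble calcium buffer of invertebrate muscle (evm.TU.Contig53.136), was at 8928, 8622 and 16209 FPKM at room temperature and at 2319.6, 4020.3 and 23844 FPKM at high temperature. Replicates 1 and 2 were below all controls and replicate 3 above them, and the log2 change was -0.83 with it and -1.82 without (limma adjusted p = 0.762 and 0.320). The calcium pump of the sarcoplasmic reticulum was at 2349.7, 2529.6 and 2578 FPKM and at 1629, 1816 and 3979 FPKM. The list median over 30 gene models was -0.04 with that library and -0.05 without. A pair of calmodulin gene models differed in direction, evm.TU.Contig131.10 at 1.13 and evm.TU.Contig975.11 at -0.77.

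Cytochrome P450 and conjugating enzymes, which oxidise and tag lipids and foreign compounds, lay higher in more than they lay lower. Among the more abundant ones the split around 0 was even. Of 330 gene models in the file, 79 were tested, 48 lay above 0 and the median was 0.22. At an unadjusted p under 0.05, 12 were higher (15.2%, where all gene models had 4.78%) and 4 lower, and without high temperature replicate 3 it was 7 and 6. At a mean of at least 5 FPKM the list split evenly, with 12 above and 12 below 0. Its median was then 0.04 where that of all gene models was -0.07, and 10 of 24 lay below the latter. There 2 of 24 were higher, against 115 of 3396 among all gene models. With no filter on low values 16 of 241 were higher, against 879 of 21574 among all gene models. Both shares of the list were below 15.2%. The median was 0.12 without high temperature replicate 3, 0.08 without room temperature replicate 2 and 0.03 with no filter on low values, and above 0 in all 26 alternatives. Multidrug resistance-associated protein 7, a transporter of conjugates, was lower, at 2.1, 2.39 and 2.16 FPKM against 0.112, 0.516 and 0.437 FPKM (log2 change -1.26, limma adjusted p = 0.322). Microsomal glutathione S-transferase 3 was at 103, 141 and 131 FPKM and at 75, 61.6 and 109 FPKM. Many of these enzymes are also made in the digestive gland, whose markers were therefore looked at. All 95 of them together summed to 25.1, 16.97 and 27.9 FPKM at room temperature and to 40.8, 26.8 and 50.8 FPKM at high temperature, with high temperature replicate 2 below room temperature replicate 3, and 21 of the 95 were at 0 in all 6 libraries. With no filter on low values 51 of 74 lay above 0 with a median of 0.03. The 8 that were tested had a median of 0.62 (0.43 without high temperature replicate 3), but some passed the filter through the high temperature group alone, so this is a description. Acidic mammalian chitinase was at 0.696, 0.244 and 0.336 FPKM and at 2.05, 1.34 and 2.39 FPKM, and a pancreatic lipase match at 4.64, 0.415 and 3.39 FPKM and at 6.15, 5.67 and 10.2 FPKM. The part of digestive gland RNA in the values of the P450 list was not tested.

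Antioxidant proteins lay lower in 27 of 41 gene models (median -0.17 with and without high temperature replicate 3). Peroxiredoxin-6 was at 6.22, 12.5 and 8.45 FPKM at room temperature and at 4.4, 2.09 and 3.03 FPKM at high temperature, with the groups apart. Sestrin-1, a stress-induced regulator of growth, was at 315, 315 and 124 FPKM and at 169, 117.1 and 209.8 FPKM, with overlapping groups. Of the 5 tested hypoxia response gene models 3 lay below 0 (median -0.21, and -0.06 without that library). Hypoxia-inducible factor 1-alpha, the oxygen-sensing transcription factor, was at 12.7, 7.52 and 10.7 FPKM and at 11.7, 7.89 and 5.43 FPKM.

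Of 15 bZIP and immediate-early transcription factors 8 lay below 0, with a median of -0.02 (-0.01 without high temperature replicate 3), and the 2 of lowest p lay above. Early growth response protein 1, which is switched on within minutes of many stimuli in vertebrates, was at 2.84, 3.96 and 5.61 FPKM at room temperature and at 8.19, 10 and 7.1 FPKM at high temperature (log2 change 0.90, limma adjusted p = 0.348). MafK, a partner of stress-responsive bZIP factors, was at 11.1, 13.9 and 10.8 FPKM and at 17.8, 20.6 and 22.7 FPKM (0.73, limma adjusted p = 0.363). The groups did not overlap in either. The abundant ATF-5, which in other animals acts in the mitochondrial stress response, was at 1204, 1127 and 612 FPKM and at 614, 765 and 449.7 FPKM. In the serine, glycine and one-carbon list of 16 (median 0.08, and 0.12 without that library), phosphoserine aminotransferase stood against the glycine cleavage H protein, which breaks glycine down and was at 51.3, 59.2 and 63 FPKM and at 27.4, 27.8 and 52.6 FPKM.

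In the extracellular matrix, 25 of 37 collagens, laminins and integrins lay above 0, with a median of 0.20 (0.15 without high temperature replicate 3). At an unadjusted p under 0.05, 6 were higher and 1 lower, where all gene models had 4.78% and 4.96%. But without high temperature replicate 1 it was 0 and 1, and with the same total 2 and 0. Without room temperature replicate 1 or 2 it was 3 and 1. A collagen alpha-4(VI) match, of the fine filaments that anchor muscle fibres, was at 11.3, 12.7 and 11.7 FPKM at room temperature and at 31, 18.9 and 26.5 FPKM at high temperature (log2 change 1.01, limma adjusted p = 0.410). A collagen alpha-5(VI) match was at 21.2, 16 and 23.1 FPKM and at 6.9, 10.8 and 9.13 FPKM (-1.09). The groups were apart in both, in opposite directions. SPARC, a collagen-binding protein, was at 222, 238 and 534 FPKM and at 302, 272 and 444 FPKM. The list median was lowest with no filter on low values, at 0.06. Metalloproteinases and their inhibitors had 9 of 15 above 0 and a median of 0.04, which was 0.18 without high temperature replicate 3 and -0.18 without room temperature replicate 2.

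Innate immune receptors and effectors were evenly divided, with 33 of 69 above 0 and a median that turned from -0.03 to 0.05 without high temperature replicate 3. Toll-like receptor 1, a pattern recognition receptor, was at 3.38, 1.23 and 3.64 FPKM at room temperature and at 5.33, 8.79 and 8.35 FPKM at high temperature, with the groups apart (log2 change 1.23, limma adjusted p = 0.323). Big defensin, an antimicrobial peptide of bivalve blood cells, was at 824, 484 and 266 FPKM and at 238, 654 and 209.7 FPKM. Peptidoglycan recognition protein was at 342, 98.2 and 206 FPKM and at 209, 17.1 and 421 FPKM, and both spread more within groups than between them. Haemocyte markers, 15 in the table with 3 at 0 in all 6 libraries, summed to 402 to 984 FPKM at room temperature and to 329 to 875 FPKM at high temperature. The 6 of them that were tested had a median of 0.12 (0.13 without that library).

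Among signalling and transport gene models, frizzled-4, a Wnt receptor, was at 20.4, 6.12 and 14.5 FPKM at room temperature and at 29.3, 25 and 19 FPKM at high temperature. A match to glycine transporter 2 (evm.TU.Contig483.71) was at 15.8, 3.85 and 5.84 FPKM and at 25.7, 23 and 16.7 FPKM (log2 change 1.45, limma adjusted p = 0.342), while another of that name (evm.TU.Contig467.35) was at 16.1, 12.1 and 11.4 FPKM and at 6.43, 6.64 and 8.13 FPKM (-0.81). The groups were apart in both, again in opposite directions. The sodium pump alpha subunit was at 107, 97.4 and 125 FPKM and at 71.1, 72.8 and 134 FPKM. The median of 26 TGF-beta, BMP and Wnt gene models was 0.03, and 0.16 without high temperature replicate 3. That of 84 transporters was 0.02, and 0.05 without it. For 31 ion channels and receptors it turned from 0.04 to -0.05. The potassium channel subfamily T member 1 was at 1.75, 0.815 and 3.44 FPKM and at 4, 4.27 and 7.99 FPKM.

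DNA replication and cell cycle gene models had 31 of 48 below 0 (median -0.09, and -0.12 without high temperature replicate 3). Proliferating cell nuclear antigen, the sliding clamp of DNA replication, was at 5.52, 5.93 and 4.71 FPKM at room temperature and at 2.43, 3.4 and 3.17 FPKM at high temperature (log2 change -0.68, limma adjusted p = 0.349). Cyclin-related protein FAM58A had a log2 change of -0.97. Of 43 chromatin modifiers 24 lay below 0 (median -0.07, and -0.06 without that library). Bromodomain-containing protein 2, which reads acetylated histones, was at 9.08, 10 and 9.01 FPKM and at 14, 14.6 and 13.1 FPKM, 2 separate groups (log2 change 0.52, limma adjusted p = 0.466).

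Markers of further tissues were at low levels. Cilia gene models summed to 60.7 to 71.3 FPKM at room temperature and to 48.6 to 62.3 FPKM at high temperature over 93 in the table, 11 of them at 0 in all 6 libraries. The 15 tested had a median of -0.24 (-0.16 without high temperature replicate 3), and the 2 of lowest p were intraflagellar transport proteins. Gonad markers summed to 93.4 to 124 FPKM and to 97.8 to 109 FPKM over 64 gene models, 13 of them at 0, and nerve markers to 102 to 125 FPKM and to 108 to 115 FPKM over 60, 7 of them at 0. Shell and mantle markers summed to 45.9 to 69.2 FPKM at room temperature and to 36.9 to 45.0 FPKM at high temperature over 55, 18 of them at 0. The 11, 14 and 4 of these that were tested had medians of -0.35, -0.01 and -0.34, which without high temperature replicate 3 were -0.14, -0.01 and -0.18. Their part in the other results was not tested.

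The deviation of high temperature replicate 3 grew with abundance. Among 2615 gene models with a mean of 1 to 2 FPKM, the median difference from the room temperature mean was 0.03, 0.02 and -0.05 for high temperature replicates 1, 2 and 3. Among 138 gene models with a mean of 1000 FPKM or more, it was -0.68, -0.38 and 0.68. In this most abundant class replicate 3 was the highest of the 6 libraries in 95.7%, against 27% of all gene models. It was the lowest in 21.2% of all gene models and in 0.725% of this class. The lists of ribosomal proteins, oxidative phosphorylation and contraction hold many of the most abundant gene models.

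**Figure D5:**
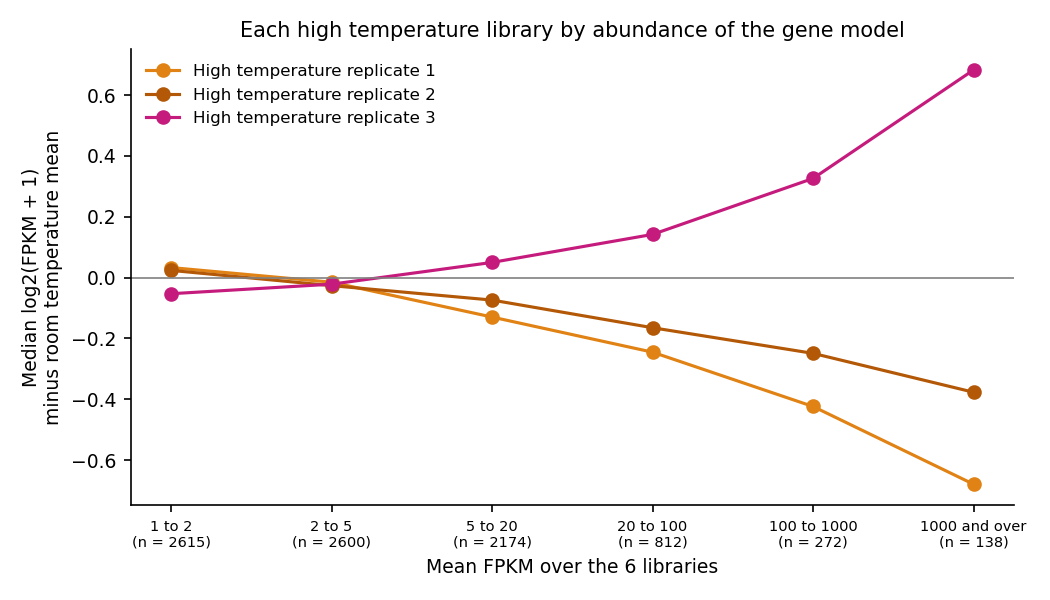
Median difference of each high temperature library from the room temperature mean, on log2(FPKM + 1), in 6 classes of mean FPKM with the number of gene models in each. The lines part with abundance: at 1000 FPKM and over, high temperature replicate 3 lies at 0.68 and replicates 1 and 2 at -0.68 and -0.38.

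The number of gene models in which this library was the highest depended on the scaling between libraries. When each library was scaled to the same total, high temperature replicate 3 was the highest in 379 gene models (4.40%) and the lowest in 4449. The difference between abundant and other gene models remained. Its median from the room temperature mean was then 0.04 for ribosomal proteins, against -0.42 for all gene models. Setting each gene model against those of like mean FPKM, a comparison added after the data were seen, gave medians of -0.04 with and -0.13 without that library for ribosomal proteins. For oxidative phosphorylation they were 0.06 and -0.06, for proteasome subunits -0.38 and -0.37, for glycolysis -0.30 and -0.31, and for lysosome and autophagy 0.18 and 0.35. The gap that this library made in the first 2 lists was thus smaller at matched abundance, and the proteasome and glycolysis medians were about the same with and without it. Whether its high values come from the muscle sample or from the library was not tested.

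Without high temperature replicate 3 limma still called 0 gene models, with a lowest adjusted p of 0.160 while 470 (5.46%) lay higher and 499 (5.79%) lower with an unadjusted p under 0.05. Of the 839 gene models under that p with all libraries, 543 (64.7%) were also under it in the same direction without it, which is 56.0% of the 969 found without it. Gene models whose groups did not overlap increased to 1225 higher (14.2%) and 1697 lower (19.7%), as 2 libraries are more easily apart from 3 than 3 are. In 550 of the 1697 high temperature replicate 3 lay above every control. The log2 change of 1399 gene models (16.2%) turned its sign.

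Gene models that came forward without that library included several regulators of signalling. Dual specificity protein phosphatase 10, which switches off stress-activated kinases, was at 5.63, 6.09 and 5.29 FPKM at room temperature and at 16.9, 19.1 and 6.69 FPKM at high temperature. Replicate 3 was just above the controls, and the log2 change was 1.07 with it and 1.51 without (limma adjusted p = 0.348 and 0.160). Diaphanous, an actin-assembling formin, was at 1.84, 2.18 and 2.05 FPKM and at 6, 5.61 and 1.46 FPKM. IMAP family member 7, a GTPase of immune cells in vertebrates, was at 1.4, 1.59 and 1.69 FPKM and at 5.23, 5.72 and 1.76 FPKM, and Rab-5A of early endosomes at 1.03, 0.504 and 0.849 FPKM and at 2.77, 3.55 and 1.65 FPKM. In the other direction, the mitochondrial protease ClpP was at 4.43, 6.01 and 3.74 FPKM and at 1.11, 1.53 and 2.7 FPKM. S-formylglutathione hydrolase, which detoxifies formaldehyde, was at 5.89, 7.04 and 7.64 FPKM and at 2.8, 1.38 and 6.36 FPKM, and tetratricopeptide repeat protein 9A at 4.86, 3.3 and 3.18 FPKM and at 0.328, 0 and 7.19 FPKM. In each of these replicate 3 lay closer to the controls than replicates 1 and 2, or beyond them. The gene models were chosen by their p without that library, so its place follows in part from the choice.

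Single gene models in which high temperature replicate 3 lay farthest from all other libraries belonged to no common function. Testis-specific serine/threonine-protein kinase 5 was at 0 in all room temperature libraries and at 5.27, 0.272 and 17.9 FPKM at high temperature. Cathepsin B, a lysosomal protease (evm.TU.Contig74.136), was at most 0.459 FPKM in the other libraries and at 6.49 FPKM in this one. Ferric-chelate reductase 1, which reduces iron, was at most 20.2 FPKM elsewhere and at 69.4 FPKM here. On the low side, ribosomal RNA processing protein 36 was at 3.51 to 13 FPKM in the other libraries and at 0.192 FPKM in this one, spermatogenesis-associated protein 22 at 10.9 to 21.3 FPKM and 0.0833 FPKM, and the autophagy enzyme ATG3 at 12 to 18.8 FPKM and 2.78 FPKM. Fatty acid-binding protein 9 was at 11.2 to 21.3 FPKM and 2.59 FPKM. These gene models were chosen for their place, and their values are a description.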

How the data were processed

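Adductor muscle RNA was sequenced by the authors, and 6 of the 9 libraries, 3 at high and 3 at room temperature, were compared. The authors deposited FPKM per gene model, with contigs, coordinates and protein names. HISAT2 2.0.4 and HTSeq 0.9.1 are named in the submitters' processing notes, and the sources used here give no genome build, strand setting or treatment of reads shared by similar gene models. Multiplied by gene length, the deposited FPKM came in whole steps per library (to within 2.8e-08 of a read), which gave back the reads. Each library had been divided by 13972285 reads multiplied by its median-of-ratios size factor, so the values carry a scaling between libraries.

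Limma 3.58.1 in R 4.3.3 was fitted to log2(FPKM + 1) for the 8611 gene models with a mean of at least 1 FPKM over the 6 libraries. All 9 libraries entered 1 fit of group means with eBayes and a trend, and p-values were adjusted by Benjamini-Hochberg over all 8611 at a threshold of 0.05. A log2 change on this scale understates changes of low values. The script was tested on simulated data. Python 3.11 tools and matplotlib drew the summaries. Positions are on the contigs of the deposited table, and no sequence is shown.

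The gene models described, the lists and the naming rule were chosen with earlier results of these data known, and the words that define the lists were adjusted after member names were read. Lists are given by counts and medians with no test. The gene models named come from a rule: the 12 of lowest p in each direction with a protein name, the 2 of lowest p and the 2 most abundant of each list with those that moved most without high temperature replicate 3, the 6 of lowest p in each direction without that library, the 10 in which it lay farthest above and the 10 farthest below the other 5, and the 2 of greatest change in each direction. Myosin heavy chain was named as a marker. Alternatives tried were another pseudocount (0.1), no filter, a minimum of 5 FPKM, 3 other scalings, a fit of only the 6 libraries, robust variance, array weights, a replicate block, an adjusted p under 0.1, leaving out each library, and voom on the recovered reads. Added after the data were seen were voom with quality weights, the fit of 6 libraries without each library in turn, leaving out high and low temperature replicate 3 together, the same total without high temperature replicate 3, and medians set against gene models of like mean FPKM in 20 bins.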

Additional observations from a re-analysis of the deposited data

How the results depend on the processing

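Most alternatives called 0 gene models in either direction. Leaving out 1 library of the 6 gave 0 to 2 calls higher and 0 to 1 lower in the fit of all libraries: pyrroline-5-carboxylate reductase 2 higher and protein rolling stone lower without room temperature replicate 1 (both limma adjusted p = 0.00865, against 0.432 and 0.511 with all libraries), the unannotated evm.TU.Contig1109.4 without room temperature replicate 3 (0.0432), and a tubulin beta chain and testis-specific serine/threonine-protein kinase 5 without high temperature replicate 2 (0.0375). These gene models were singled out after their values were seen, and none was called in the fit of only the 6 libraries without the same library. Voom with quality weights called 0 at an adjusted p under 0.05, with a lowest of 0.0602, and 64 higher and 36 lower under 0.1, where limma called 0. The replicate block called 0 higher and 0 lower (460 and 468 at an unadjusted p under 0.05). Deviations of same-numbered libraries correlated at 0.153, 0.0321 and 0.187, so the numbers were not taken as pairs, although each high temperature library correlated best with its own number. The number of lists with a median below 0 was 28, and 14 with the same total and 4 with that and without high temperature replicate 3. It was 22 to 26 when 1 library was left out. High temperature replicate 3 was the highest of the 6 in 2327 gene models (27%), in 1202 (35.4%) at a minimum of 5 FPKM, in 4426 (20.5%) with no filter and in 379 (4.40%) with the same total. Of 5704 values of 222 gene models under alternatives, 5334 kept their direction and stayed uncalled, 369 changed sign and 1 was called. Of 1053 list medians 915 moved by less than the spread between libraries. The same total moves the median of all gene models from -0.03 to 0.05, and to 0.28 without high temperature replicate 3. The causes of these differences were not tested. With 3 libraries per group and few reads for low gene models, small changes may not be detectable.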

Other observations

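The greatest differences on the log2(FPKM + 1) scale, whatever the annotation, lay partly in gene models without a protein name. The unannotated evm.TU.Contig257.11, on Contig257 from 158812 to 162379, was at 186, 91.3 and 79 FPKM at room temperature and at 7.54, 23.3 and 76.6 FPKM at high temperature. The groups were just apart, and the log2 change was -2.14 with and -2.95 without high temperature replicate 3 (limma adjusted p = 0.348 and 0.169). The unannotated evm.TU.Contig225.56 was at 9.36, 1.09 and 0.401 FPKM and at 17, 13.3 and 35.7 FPKM (log2 change 2.76, limma adjusted p = 0.329). A gene model with a calponin homology domain, evm.TU.Contig119.168, was at 29.4, 11.3 and 476 FPKM and at 237, 111 and 1541 FPKM, where both libraries numbered 3 were the highest of their group (log2 change 2.62, limma adjusted p = 0.618).

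In 2 gene models with a protein name 1 library set the value. A 60S ribosomal protein L6 match on a short contig, evm.TU.Contig15741.1, was at 62.7 FPKM in high temperature replicate 1 and at 0.632 to 2.04 FPKM in the other 5 libraries. A fibrinogen-like protein A match was at 23 FPKM in high temperature replicate 1 and at 0.144 to 0.78 FPKM in the others.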
